A study of Mus musculus with 39 samples.

Results

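The 10 genes described here encode the small leucine-rich proteoglycans Dcn, Bgn, Lum, Fmod, Ogn, Omd, Aspn, Prelp and Podn and the large proteoglycan Vcan. They were taken by symbol from the deposited table, where all 10 were found among 20520 mouse genes, and all 10 were among the 13650 genes that reached the level needed for testing, 1 CPM (reads scaled to library size) or more in 9 or more libraries. The study sequenced poly(A) RNA of PB2 mouse breast tumors, which were implanted and carried FL-HER2, full-length HER2, a receptor tyrosine kinase, or p95HER2, a truncated form of it that lacks most of the extracellular part. There were 10 libraries of FL-HER2 tumors at day 10 after implantation, 9 of FL-HER2 tumors at day 22, 10 of p95HER2 tumors at day 10 and 10 of p95HER2 tumors at day 22. PB2 cells and a HER2 construct are thus common to all 4 groups, and there is no group without a construct. The sources used here do not give the host strain, its age, the promoter that drives the construct or the number of clones behind each line. Each library has a tumor number of its own, but no source states whether tumors of a group grew in different mice. The tests therefore rest on variation between numbered tumors, which may differ from that between mice.

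Small leucine-rich proteoglycans are secreted matrix proteins with a curved core of leucine-rich repeats that lies on collagen fibrils and sets their thickness and spacing. Dcn (decorin), Bgn (biglycan) and Aspn (asporin) form class I, Fmod (fibromodulin), Lum (lumican), Prelp and Omd (osteomodulin) class II, Ogn (osteoglycin) belongs to class III and Podn (podocan) to class V. Several of them bind transforming growth factor beta, and fibroblasts are their main source in most tissues, with tendon, cartilage and bone adding more. Vcan (versican) is unrelated in fold: it is a large chondroitin sulfate proteoglycan that binds hyaluronan, forms a loose, hydrated matrix and can be made by tumor cells, fibroblasts and macrophages.

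Several of the genes are neighbours in the mouse genome (mm10, the GRCm38 assembly; positions from GENCODE M21). Aspn (chr13:49544443-49567565), Omd (chr13:49582462-49592822) and Ogn (chr13:49608046-49624501) lie in a row on the plus strand with no other coding gene between them. Dcn (chr10:97479609-97518143) and Lum (chr10:97565128-97572703) are adjacent on the plus strand, and Prelp (chr1:133910304-133921414, minus strand) and Fmod (chr1:134037254-134048277, plus strand) are adjacent on chromosome 1. Bgn (chrX:73483602-73495933, plus strand) and Podn (chr4:108014791-108096445, minus strand) stand apart from the others. Vcan (chr13:89655312-89742509, minus strand) shares chromosome 13 with Ogn but lies 40030810 bases from it. Promoters of 8 of the 10 genes were found in the RefSeq table of GRCm38.p6 (250 bases before to 50 after the start), the exceptions being Dcn and Lum.

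The promoters of 4 genes, picked by the mRNA levels of the genes, are shown. They are Aspn and Ogn, neighbours that were among the members with the largest falls, Vcan, which moved the other way, and Bgn, the most abundant member per length. They lie at chr13:49544193-49544492 (Aspn, plus strand), chr13:49607765-49608064 (Ogn, plus), chr13:89742463-89742762 (Vcan, minus) and chrX:73483351-73483650 (Bgn, plus). Capitals mark matches on either strand to TATAAA (the core promoter element bound by TBP), GGGCGG (bound by Sp1) or GGAATG (TEAD site); TGANTCA (AP-1 site) was searched too and has no match in these 4. Overlapping matches are merged in 1 run of capitals.
Aspn: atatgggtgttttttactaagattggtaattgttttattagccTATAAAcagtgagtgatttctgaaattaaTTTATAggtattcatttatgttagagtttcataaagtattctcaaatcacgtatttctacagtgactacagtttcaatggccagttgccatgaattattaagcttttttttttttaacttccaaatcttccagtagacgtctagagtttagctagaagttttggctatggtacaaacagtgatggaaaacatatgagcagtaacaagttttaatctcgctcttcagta
Ogn: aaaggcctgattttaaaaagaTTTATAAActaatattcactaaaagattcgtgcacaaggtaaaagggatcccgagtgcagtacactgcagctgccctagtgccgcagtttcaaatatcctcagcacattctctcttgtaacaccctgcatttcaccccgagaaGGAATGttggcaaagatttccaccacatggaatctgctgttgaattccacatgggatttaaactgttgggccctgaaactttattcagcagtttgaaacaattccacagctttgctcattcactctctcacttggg
Vcan: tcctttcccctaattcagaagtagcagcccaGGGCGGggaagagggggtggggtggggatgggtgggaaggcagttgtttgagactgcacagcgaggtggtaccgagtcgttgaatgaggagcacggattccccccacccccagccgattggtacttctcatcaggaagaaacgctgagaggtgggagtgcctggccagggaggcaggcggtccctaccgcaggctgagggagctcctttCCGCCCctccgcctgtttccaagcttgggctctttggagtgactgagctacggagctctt
Bgn: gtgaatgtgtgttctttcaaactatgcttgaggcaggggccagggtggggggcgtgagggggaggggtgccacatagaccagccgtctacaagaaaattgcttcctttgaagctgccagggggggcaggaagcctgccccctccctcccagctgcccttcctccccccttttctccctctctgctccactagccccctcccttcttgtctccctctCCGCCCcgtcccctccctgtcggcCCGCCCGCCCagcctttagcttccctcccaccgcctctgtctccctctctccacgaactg

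Aspn has 31% G and C in this window, lower than all but 1.28% of 32851 mouse promoters, and Ogn has 42.3%, while Vcan has 61% and Bgn 63.7%, against a median of 52.7%. Aspn and Ogn hold 2 TATAAA matches each, which 13.6% of all promoters hold at least once, and Ogn holds 1 GGAATG match (14.7% of promoters). The TATAAA matches begin at -207 and -178 relative to the start in Aspn. In Ogn they begin at -229 and -227 and overlap in 1 stretch read on both strands. Whether any of them acts as a core promoter element was not tested. GGGCGG occurs 2 times in Vcan and 3 times in Bgn (35.7% of promoters hold it), and TGANTCA is found in 7.81% of promoters. Of the other members with a promoter in the table, 1 of the 2 Podn promoters holds GGGCGG 2 times, and Fmod, Omd and Prelp hold none of the 4 motifs. These matches describe the letters of the windows and were not tied to any value below.

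Libraries held 21772259 to 44427621 reads on genes, and Erbb2, which encodes HER2, was higher in the p95HER2 libraries at day 10 (log2 change 0.85 ± 0.10 SE, adjusted p = 6.63e-08 by limma) and at day 22 (0.73 ± 0.11, adjusted p = 1.41e-05). Both constructs carry HER2, so this level does not by itself check the labels. Some differences between libraries bear on the results below. Tumors carry numbers: 8 of 10 in FL-HER2 at day 10 have numbers of 5 digits, and those of all other groups have 3. No source states what the number of digits marks, or whether any library is a pool of tumors. If some were pools, variation between them would not be that between single tumors. FL-HER2 day 10 replicates 7 and 9 are the 2 of that group with 3 digits, and the labels of replicate 8 differ in a digit. Skeletal muscle markers took 0.0494% to 3.84% of reads in FL-HER2 day 10 libraries and 0.00372% to 1.05%, 0.0263% to 0.940% and 0.00147% to 0.606% in p95HER2 at day 10, FL-HER2 at day 22 and p95HER2 at day 22. Skin markers set apart 11 libraries, 2 and 5 of FL-HER2 and p95HER2 at day 10 and 1 and 3 at day 22. The summed level of the fibroblast markers, 23 of 24 of which were tested and none of which was at 0 in every library, ran, for FL-HER2 and p95HER2, from 3139 to 6019 and from 1977 to 3748 CPM on day 10 and from 1358 to 2275 and from 1626 to 2195 CPM on day 22. In bulk RNA, fewer cells of a type and less RNA per cell cannot be told apart.

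At day 10, p95HER2 tumors held less mRNA of 8 of the 9 small leucine-rich proteoglycans than FL-HER2 tumors and more of Vcan. The falls reached 5.26-fold for Ogn, 4.13-fold for Fmod and 3.61-fold for Aspn, and Vcan was 1.45-fold higher. Prelp did not pass the test. Of all 13650 genes tested, 26.1% were called lower and 15.2% higher in this comparison (limma, Benjamini-Hochberg adjusted p under 0.05). Of these calls 36.8% were higher, and 63.4% with quantile normalization, which called the same numbers of members. The median log2 change was -1.37 over the 10 members and -0.04 over all genes tested.

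Among the class I genes, Dcn, whose product decorates collagen fibrils and binds transforming growth factor beta, ran from 123 to 241 CPM (median 203, n = 10) in FL-HER2 and from 35.5 to 113 CPM (median 66.8, n = 10) in p95HER2 at day 10. Every p95HER2 library was below every FL-HER2 library (log2 change -1.66 ± 0.21 SE, adjusted p = 9.62e-08, limma). Dcn was the only member whose day 10 groups did not overlap; this held in the lower direction for 1.42% of all genes and in the higher direction for 1.43%. Aspn, a collagen- and growth factor-binding relative that carries a run of aspartates, ran from 53.7 to 187 CPM (median 105) and from 16.8 to 57.3 CPM (median 29.3). All but 1 of its 10 p95HER2 libraries lay below the lowest FL-HER2 library (-1.85 ± 0.21, adjusted p = 1.25e-08). Bgn, which also signals through Toll-like receptors when it is set free from the matrix, ran from 1053 to 2022 CPM (median 1501) and from 833 to 1363 CPM (median 1140). It fell least of the 8, with 4 of 10 p95HER2 libraries below the FL-HER2 range and all 10 below its median (-0.47 ± 0.12, adjusted p = 0.00157).

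Among the class II genes, Lum, which shapes thin fibrils such as those of the cornea and skin, went from 57.6 to 140 CPM (lowest to highest, median 97.8) among FL-HER2 libraries to 19.1 to 62.3 CPM (median 34.0) among p95HER2 libraries. A single p95HER2 library reached into the FL-HER2 range (-1.48 ± 0.21, adjusted p = 8.24e-07). Fmod, a regulator of collagen cross-linking that is abundant in tendon and cartilage, spread widely in both groups, from 27.0 to 119 CPM (median 57.8) and from 4.83 to 32.0 CPM (median 15.7; -2.05 ± 0.28, adjusted p = 4.30e-07). Omd, known for mineralized tissues, was scarce, at 1.39 to 3.46 CPM (median 1.79) and 0.571 to 1.5 CPM (median 0.875), with 20 reads in its lowest p95HER2 library (-1.27 ± 0.31, adjusted p = 0.00122). Prelp, which links basement membranes to collagen through heparan sulfate, differed from these relatives in values: 96.3 to 171 CPM (median 137) against 107 to 169 CPM (median 129), with ranges that coincide (-0.11 ± 0.13, adjusted p = 0.518).

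Ogn, of class III, ran from 16.1 to 61.4 CPM (median 43.6) in FL-HER2 and from 4.51 to 16.2 CPM (median 6.78) in p95HER2 at day 10, and its log2 change of -2.40 ± 0.27 was the lowest of the 10 (adjusted p = 8.45e-09, limma). Podn, of class V, ran from 4.75 to 11.7 CPM (median 8.68) and from 2.26 to 6.08 CPM (median 3.75; -1.23 ± 0.20, adjusted p = 9.84e-06). Vcan ran from 77.0 to 127 CPM (median 95.9) in FL-HER2 and from 106 to 226 CPM (median 148) in p95HER2. Of its 10 p95HER2 libraries, 8 lay above the highest FL-HER2 library and all 10 above the FL-HER2 median (0.53 ± 0.13, adjusted p = 0.000911).

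Within FL-HER2 at day 10, the 2 libraries with a 3-digit number were below all 8 others in CPM for 5 members, and above them for 0, where 4.21% of all genes tested were below and 6.37% above. The 5 were Bgn (1053 and 1078 CPM against 1346 to 2022), Lum, Fmod, Aspn and Podn (4.75 and 5.19 CPM against 7.74 to 11.7). With number length added to the group in the model, so that these 2 libraries carry the FL-HER2 level, Dcn (-1.30, adjusted p = 0.0169), Ogn (-1.92, 0.00643) and Aspn (-1.05, 0.0370) were called lower in limma, Bgn had a log2 change of 0.02 (adjusted p = 0.970) and Vcan one of 0.63 (0.0625). With the fibroblast score of each library as a covariate, Fmod (-1.31), Ogn (-0.88) and Aspn (-0.77) were called lower and Vcan higher (0.74, adjusted p = 0.0121), while Dcn was at -0.36 (0.199) and Lum at -0.05 (0.868). With the muscle score as a covariate, Vcan missed the threshold (0.33, adjusted p = 0.0795, limma) and all 8 lower calls held. Among the 3 FL-HER2 and 4 p95HER2 libraries of limited muscle content (0.1% to 1.3% of reads), Lum (-1.52), Fmod (-1.40) and Aspn (-1.88) were called lower and Vcan was at 0.34 (adjusted p = 0.306).

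**Figure D1:**
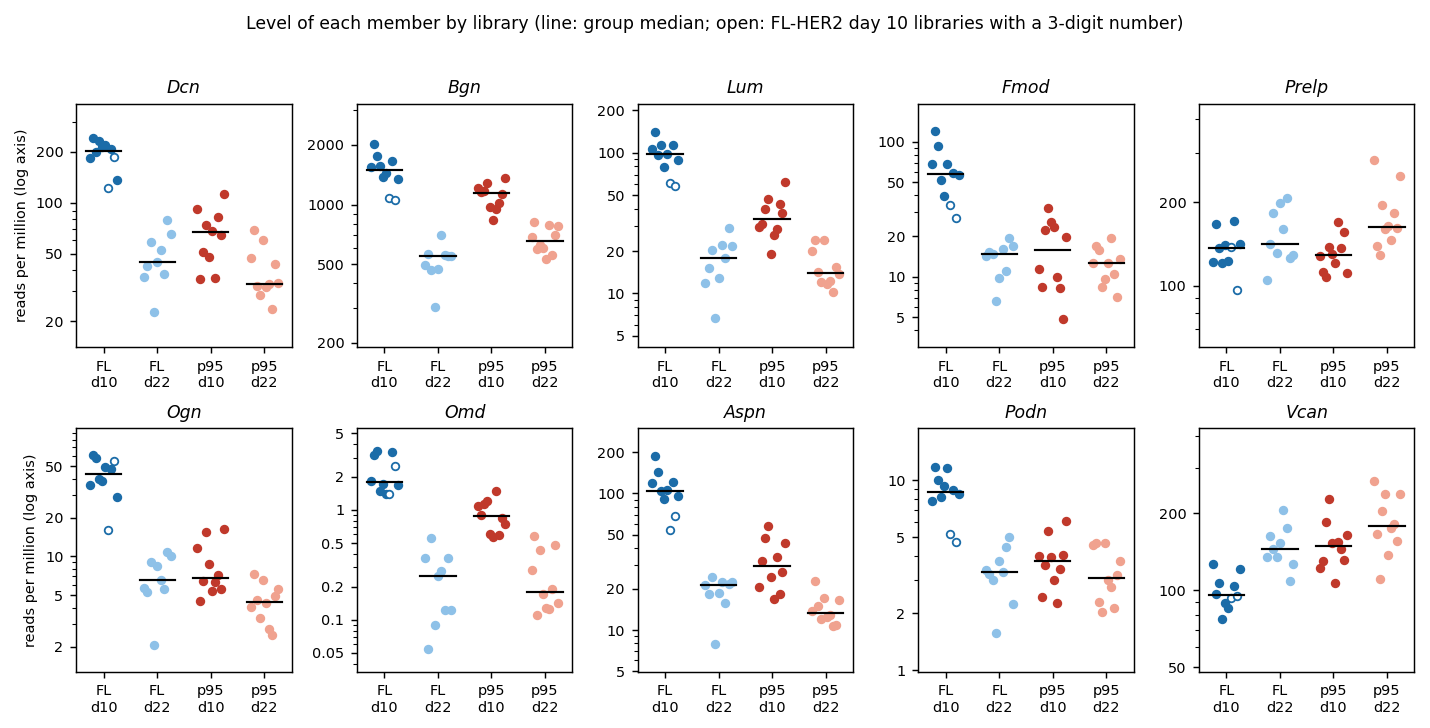
CPM (log axis) of each member in each of the 39 libraries, by group (FL, FL-HER2; p95, p95HER2; d10 and d22, days 10 and 22); lines are group medians and open circles the 2 FL-HER2 day 10 libraries with a 3-digit number. Dcn falls from a median of 203 CPM in FL-HER2 at day 10 to 44.9 CPM at day 22, Prelp stays between medians of 129 and 162 CPM, and Vcan is lowest in FL-HER2 at day 10.

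At day 22 none of the 10 members passed the test between constructs in limma, in either direction, where 2.98% of all genes were called higher and 1.54% lower in p95HER2. Leaving out 1 library moved these counts of genes from 407 to between 258 and 581 and from 210 to between 81 and 339. Unadjusted, 3 members had a p under 0.05, and a weighted fit on the recovered reads (voom) called 0 as well. Bgn came nearest, at 305 to 699 CPM (median 550, n = 9) in FL-HER2 and 530 to 813 CPM (median 656, n = 10) in p95HER2 (log2 change 0.38 ± 0.12, adjusted p = 0.0641). It was called higher when FL-HER2 day 22 replicate 6 (0.43, adjusted p = 0.0252) or p95HER2 day 22 replicate 6 (0.41, 0.0374) was left out. Vcan ran from 109 to 206 CPM (median 144) and from 111 to 267 CPM (median 178; 0.30 ± 0.13, adjusted p = 0.208). Ogn ran from 2.05 to 10.8 CPM (median 6.52) and from 2.46 to 7.34 CPM (median 4.46; -0.56 ± 0.27, adjusted p = 0.273). Dcn had medians of 44.9 and 33.2 CPM (-0.28 ± 0.22, adjusted p = 0.546). For all 10 members the ranges of the constructs overlapped at day 22, as they did for nearly all genes (0.0147% of genes did not overlap in the lower direction and 0.278% in the higher). The remaining 6 members had log2 changes between -0.40 and 0.22.

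From day 10 to day 22, 8 members fell in FL-HER2 tumors, Vcan rose and Prelp did not pass. This comparison shares its FL-HER2 day 10 libraries with the comparison of constructs at day 10. Of all genes, 30.6% were called lower and 20.7% higher over this interval (40.4% of calls higher, against 62.5% with quantile normalization and 62.4% with log2(CPM + 1), which called the same numbers of members), and the median log2 change was -2.19 over the members and -0.03 over all genes. On the deposited log2 scale the 2 days did not overlap for any of these 8 members, against 6.89% of all genes in this direction; Prelp and Vcan overlapped (2.78% of genes did not overlap in the higher direction). In CPM the highest day 22 library of Podn (5.0) passed the lowest of day 10 (4.75).

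Lum dropped from a median of 97.8 CPM to 17.9 CPM (6.66 to 29.2, n = 9) in FL-HER2, a log2 change of -2.62 ± 0.22 (adjusted p = 1.23e-12, limma). Aspn dropped to 21.5 CPM (7.95 to 24.4; -2.60 ± 0.22, adjusted p = 1.64e-12) and Ogn to 6.52 CPM (2.05 to 10.8; -2.76 ± 0.27, adjusted p = 1.15e-10). Dcn reached 44.9 CPM (22.5 to 78.8; -2.16 ± 0.22, adjusted p = 1.20e-10). The mineral-binding Omd was almost lost: 9 libraries held 0.0540 to 0.556 CPM (median 0.249), 1 of them with 2 reads (-3.26 ± 0.32, adjusted p = 7.24e-11), so its fold depends on the pseudocount. Fmod (-2.21 ± 0.29), Bgn (-1.64 ± 0.12) and Podn (-1.49 ± 0.21) fell too, with adjusted p from 8.44e-14 to 2.25e-07. Vcan was above the day 10 median in all 9 day 22 libraries and above the day 10 range in 7 of them (0.46 ± 0.13, adjusted p = 0.00329). Prelp had medians of 137 and 141 CPM (0.04 ± 0.13, adjusted p = 0.803). With the fibroblast score as a covariate, Bgn (-0.64, adjusted p = 0.0249) and Omd (-2.07, 0.0477) were called lower, and Vcan was at 0.78 (0.0833). In that limma fit Dcn (-0.11, adjusted p = 0.862), Lum (-0.36, 0.271), Fmod (-1.05, 0.322), Ogn (-0.38, 0.637), Aspn (-0.89, 0.112) and Podn (0.26, 0.695) were not called. With number length as a term, limma called 7 members lower, while Podn (-0.73, adjusted p = 0.109) and Vcan (0.56, 0.0715) missed the threshold.

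Over the same interval in p95HER2 tumors, 6 members fell and 1, Prelp, rose, beside 18.6% of all genes lower and 16.6% higher (median -0.79 over the members, 0.00 over all genes). Omd fell from a median of 0.875 to 0.181 CPM (-1.86 ± 0.31, adjusted p = 6.94e-06, limma), Lum from 34.0 to 13.9 CPM (-1.26 ± 0.21, 7.61e-06) and Aspn from 29.3 to 13.3 CPM (-1.14 ± 0.21, 3.54e-05). Ogn (-0.93 ± 0.27), Bgn (-0.80 ± 0.12) and Dcn (-0.77 ± 0.21) fell by less than 2-fold, with adjusted p from 9.99e-07 to 0.00557. Fmod (median 15.7 and 12.6 CPM, -0.29 ± 0.28, adjusted p = 0.448), Podn (3.75 and 3.07 CPM, -0.28 ± 0.20, 0.317) and Vcan (148 and 178 CPM, 0.22 ± 0.13, 0.172) did not pass. Without the skin-rich libraries Fmod was called lower (-0.90, adjusted p = 0.0328, limma) and Prelp missed the threshold (0.38, 0.0694). Prelp ran from 107 to 169 CPM at day 10 and from 128 to 283 CPM at day 22, with 4 of 10 day 22 libraries above the day 10 range (0.37 ± 0.13, adjusted p = 0.0183); without p95HER2 day 22 replicate 1, its highest library, the adjusted p was 0.0510. Leaving out p95HER2 day 22 replicate 3, the lowest for Vcan, brought Vcan past the threshold (0.31, adjusted p = 0.0406). With the fibroblast score as a covariate, Bgn (-0.30, adjusted p = 0.0492) and Omd (-1.27, 0.0192) were called lower and Prelp (0.46, 0.0490) and Podn (0.59, 0.0220) higher. Dcn (0.24, adjusted p = 0.277), Lum (-0.14, 0.42), Ogn (0.25, 0.482) and Aspn (-0.29, 0.327) were not called in that limma fit. On the log2 scale, Bgn and Omd were the members whose days did not overlap, both lower, against 4.14% of all genes lower and 2.68% higher.

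**Figure D2:**
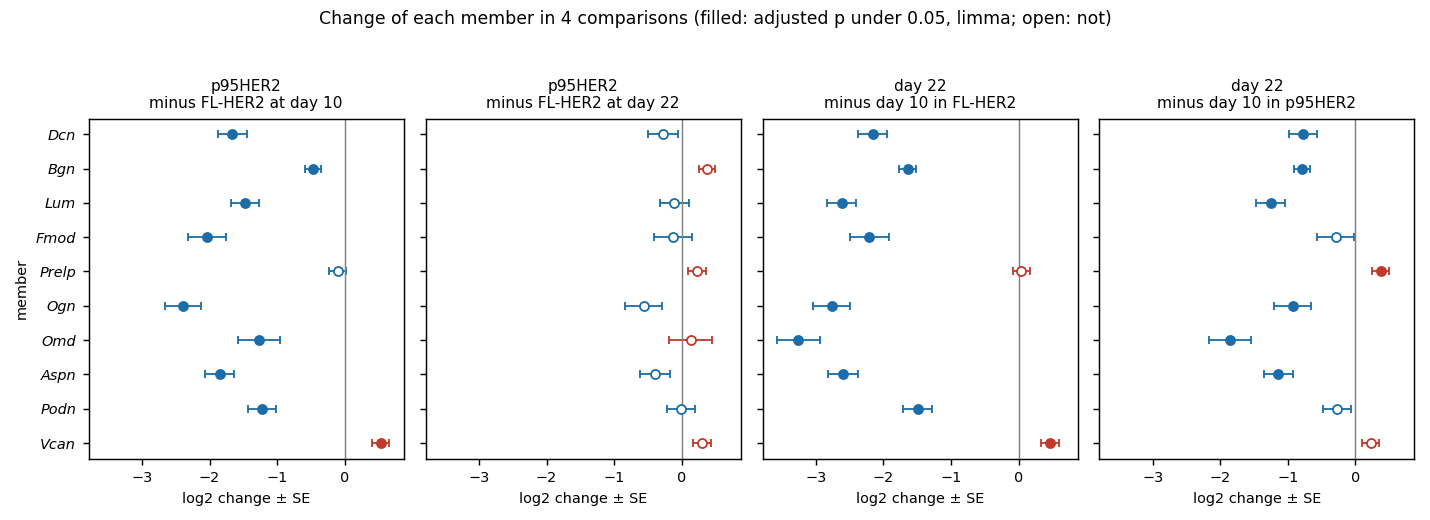
Log2 change ± SE from limma of each member in the 4 comparisons between groups; filled points have an adjusted p under 0.05 over all genes tested, blue is lower and red higher. At day 10 and over time in FL-HER2, 8 members are lower and Vcan is higher, and at day 22 no point is filled.

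The difference between constructs itself changed between the days for 8 members, all upward. Bgn went from -0.47 at day 10 to 0.38 at day 22 and Ogn from -2.40 to -0.56. Of all genes 13.5% changed in this direction and 6.20% in the other, a balance that depends on the scaling: 68.5% of calls were upward here and 42.7% with quantile normalization, which called 7 of the 8 members, all upward. Fmod changed by 1.92 ± 0.40 on the log2 scale (adjusted p = 0.000988, limma), Ogn by 1.83 ± 0.38 (0.000988), Aspn by 1.46 ± 0.30 (0.000890) and Omd by 1.40 ± 0.44 (0.0231). Dcn changed by 1.39 ± 0.30 (0.00133), Lum by 1.37 ± 0.30 (0.00159), Podn by 1.22 ± 0.29 (0.00350) and Bgn by 0.85 ± 0.17 (0.000604). Prelp (0.33 ± 0.18, 0.190) and Vcan (-0.24 ± 0.18, 0.371) did not pass. This test uses the same FL-HER2 day 10 libraries as the comparisons above, and with the digits as a term, with the fibroblast score as a covariate or among libraries of limited muscle content it called 0 of the 10.

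Levels of different genes were compared per kilobase of exon. The length used is the union of the exons of all annotated transcripts of a gene. It is 5838 bases for Dcn (5 transcripts) and 14462 for Vcan (9), but 2448 for Lum and 2566 for Ogn (1 each). The ranks and shares below therefore depend on the annotation, and lengths of single transcripts were not tried. Bgn was first in all 4 groups, at 244 ± 48.5 CPM per kilobase (SD, n = 10) in FL-HER2 at day 10 and 84.9 ± 17.3 (n = 9) at day 22, and at 181 ± 26.7 and 109 ± 16.4 in p95HER2 (n = 10 each). In FL-HER2 at day 10 it was followed by Aspn (46.2 ± 16.0), Lum (38.9 ± 10.2), Prelp (37.5 ± 6.08) and Dcn (33.2 ± 6.60), 4 genes whose ranges overlapped from each to the next. Prelp was second in the 3 other groups, at 42.4 ± 9.84 in FL-HER2 at day 22, 36.2 ± 5.55 in p95HER2 at day 10 and 50 ± 13.7 in p95HER2 at day 22. In each of these 3 groups Prelp stood clear of the next gene, and it overlapped Bgn in FL-HER2 at day 22. Vcan moved from the eighth place in FL-HER2 at day 10 (6.88 ± 1.07) to the third at day 22 in both constructs (10.3 ± 2.0 and 12.9 ± 3.39), where its range overlapped that of Dcn. Podn and Omd came last in every group.

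As shares of the per-length sum of the 10 genes, Prelp went from 8.63% ± 1.65 (SD, n = 10) to 25.4% ± 5.72 (n = 9) over time in FL-HER2 and went from 13.3% ± 2.91 to 25.2% ± 5.03 in p95HER2 (n = 10 each). Vcan went from 1.61% ± 0.39 to 6.21% ± 1.22 and from 3.77% ± 0.60 to 6.49% ± 1.26. Bgn made up 54.9% ± 1.32 and 50% ± 4.28 in FL-HER2 and 65.3% ± 2.88 and 55.3% ± 4.71 in p95HER2. Dcn, Lum and Aspn had shares of 7.57%, 8.68% and 10.1% in FL-HER2 at day 10 and of 4.89%, 4.14% and 4.80% at day 22. In p95HER2 their shares were 4.08%, 5.25% and 4.79% at day 10 and 3.46%, 3.24% and 3.10% at day 22. The plain sum of the 10 genes came to 2235 ± 433 and 1554 ± 217 CPM in the FL-HER2 and p95HER2 tumors of day 10, and to 930 ± 153 and 1127 ± 160 CPM in those of day 22. The shares are descriptions and were not tested.

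**Figure D3:**
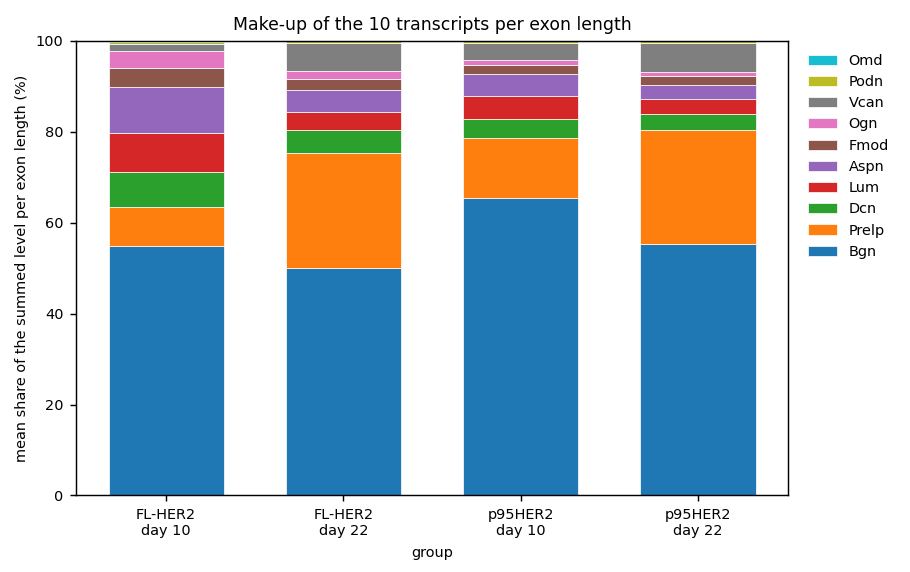
Mean share (%) of each member in the summed level per exon length (union of the exons of all annotated transcripts) of the 10 genes, in the 4 groups. Bgn takes 50% to 65.3%, and Prelp takes 8.63% in FL-HER2 at day 10 and 25.4% and 25.2% at day 22.

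To ask whether members departed from Dcn, the difference between the log2 values of a member and of Dcn was taken in each library. It was compared between groups by two-sided permutation tests, with adjustment over 36 tests. These tests reuse the log2 values fitted above and all share the values of Dcn. They thus compare sizes of changes already given and are not separate evidence of change. At day 10 (100000 resamples), Vcan departed from Dcn by 2.20 (adjusted p = 0.000270), Prelp by 1.56 (0.000288), Bgn by 1.19 (0.000240) and Podn by 0.43 (0.0222), all less reduced than Dcn or raised, and Ogn by -0.73 (0.00608), more reduced. Over time in FL-HER2 (exact permutation test), Vcan departed by 2.62 and Prelp by 2.21 (adjusted p = 0.000195 each, from p = 1e-05, the smallest the test can give). In the same test Podn (0.67, adjusted p = 0.0102) and Bgn (0.52, 0.0114) were less reduced than Dcn, and Omd (-1.10, 0.00652), Ogn (-0.60, 0.00557), Lum (-0.46, 0.0102) and Aspn (-0.44, 0.0283) more. The Aspn value missed the threshold without any 1 of 5 libraries (FL-HER2 day 10 replicates 2, 3 and 10, and day 22 replicates 8 and 9; adjusted p 0.0510 to 0.0621 by permutation). Over time in p95HER2 (100000 resamples), Prelp (1.15, adjusted p = 0.00608), Vcan (1.0, 0.00652) and Podn (0.50, 0.00557) were less reduced than Dcn or raised, and Omd (-1.08, 0.0137) and Lum (-0.48, 0.0160) more reduced. At day 22, Bgn departed from Dcn by 0.66 (adjusted p = 0.0104, exact permutation test), and the other 8 did not pass. Vcan passed at day 22 without FL-HER2 day 22 replicate 4 (0.69, adjusted p = 0.0384, exact permutation test) or p95HER2 day 22 replicate 2 (0.68, 0.0340). Ogn did so without FL-HER2 day 22 replicate 4 (-0.36, adjusted p = 0.0221) or p95HER2 day 22 replicate 10 (-0.35, 0.0304), and Lum without FL-HER2 day 22 replicate 7 (0.22, 0.0170), by the same permutation test.

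Within groups, many of the members also varied together. How often pairs of other genes do so was not determined, so the counts below have no share of all genes beside them. After group means were removed, 22 of the 28 pairs that lack Prelp and Vcan were correlated over 39 libraries past the threshold (Pearson r from 0.07 to 0.80, median 0.56; permutation within groups, adjusted over 45 pairs; 22 by Spearman rho as well). Dcn went with Ogn (r = 0.80, rho = 0.76) and with its neighbour Lum (r = 0.79, rho = 0.76), each with an adjusted permutation p of 5.62e-05 for r and 0.000112 for rho. Without the 2 libraries farthest from the median of Dcn, r was 0.75 and 0.77. The chromosome 13 neighbours gave r = 0.67 for Ogn and Aspn, 0.45 for Omd and Aspn and 0.41 for Ogn and Omd (rho 0.59, 0.44 and 0.40; adjusted permutation p of r 0.000286, 0.00593 and 0.0240, of rho 0.000655, 0.0125 and 0.0287; r 0.51, 0.39 and 0.32 without the 2 libraries farthest from the median). Prelp and its neighbour Fmod gave r = -0.08 and rho = -0.13 (adjusted permutation p = 0.678 and 0.498; r = -0.11 without the 2 libraries farthest from the median of Fmod). Of the 9 pairs with Prelp, 1 passed, that with Vcan (r = 0.45, rho = 0.43; adjusted permutation p = 0.0188 and 0.0264; r = 0.32 without the 2 libraries farthest from the median of Prelp), and it was also the 1 of 9 that passed for Vcan.

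How many of all genes correlate with the scores of the marker lists was not determined either. The fibroblast marker list holds none of the 10 members. Its score (mean log2 value) correlated within groups with Lum (r = 0.92, rho = 0.92), Dcn (0.84, 0.85), Ogn (0.77, 0.73), Podn (0.75, 0.70), Bgn (0.73, 0.65) and Aspn (0.70, 0.66), with adjusted permutation p of at most 0.000133 for r and 0.000233 for rho over 20 relations. Fmod (r = 0.35, rho = 0.33; adjusted permutation p = 0.0836 and 0.115), Omd (0.35, 0.38; 0.0728 and 0.0531), Vcan (0.22, 0.14; 0.282 and 0.486) and Prelp (0.12, 0.05; 0.564 and 0.815) did not pass. Without the 2 libraries farthest from the median score (FL-HER2 day 10 replicates 2 and 4), r ran from 0.67 to 0.92 for the 6 that passed and from 0.07 to 0.35 for the other 4. With the muscle list score, r lay between -0.25 and 0.36 for 9 members, none past the threshold. Vcan had r = -0.40 (adjusted permutation p = 0.0728) and rho = -0.43 (0.0398), and r = -0.39 without p95HER2 day 22 replicate 1 and day 10 replicate 2, the 2 libraries farthest from the median.

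**Figure D4:**
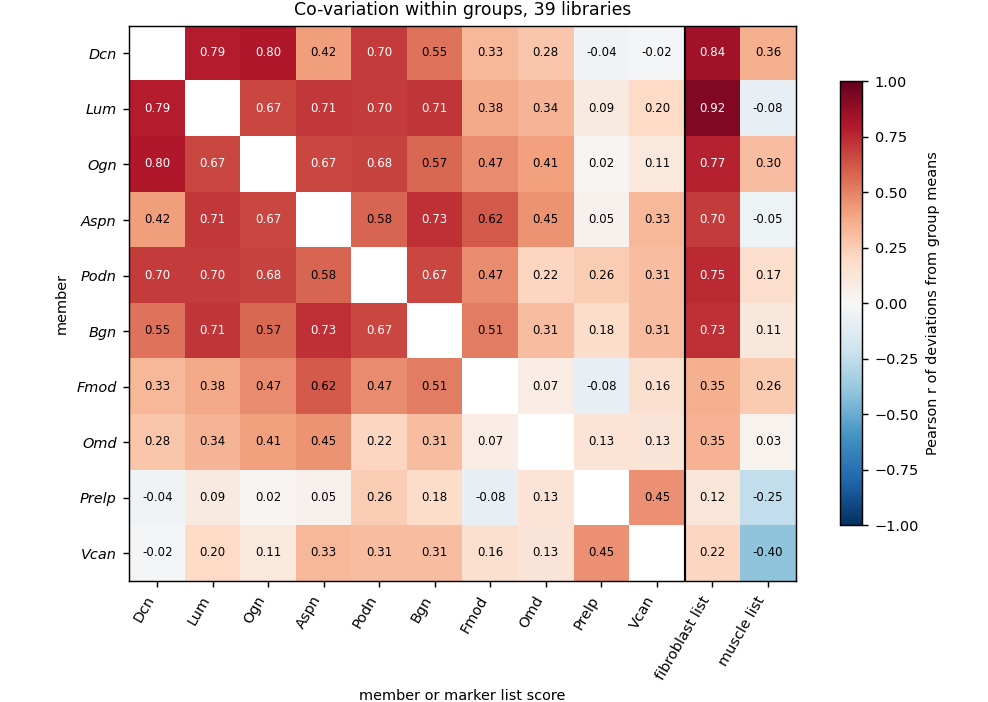
Pearson r of deviations from group means over 39 libraries, for each pair of members and, right of the line, for each member with the scores of the fibroblast and skeletal muscle marker lists (colour from -1 to 1). Dcn, Lum, Ogn, Aspn, Podn and Bgn go with the fibroblast score at r of 0.70 to 0.92, and Prelp and Vcan at 0.12 and 0.22.

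The 5 genes most like Dcn over the 39 libraries, by Spearman rho of the log2 values with the differences between groups left in, were Mfap5 (rho = 0.96), a microfibril protein, Htra3 (0.95), a secreted serine protease, Ssc5d (0.95), Sfrp4 (0.95), a secreted Wnt antagonist, and Prss23 (0.95). Mfap5 and Htra3 belong to the fibroblast list. For Vcan the most alike included the glycosyltransferase Mgat5 (0.87), Fbxo28 (0.87), the amino acid transporter Slc6a15 (0.86) and the laminin receptor subunit Itga6 (0.86). Itga6 went from 744 CPM (mean, n = 10) in FL-HER2 at day 10 to 1085 CPM (n = 9) at day 22, and from 904 to 1202 CPM in p95HER2 (n = 10 each). These likenesses share libraries and group differences and carry no p.

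Other genes of the family were taken from a list of 9, of which 5 were tested. Chad (chondroadherin, a cartilage and tendon member of class IV) was lower in p95HER2 at day 10, with medians of 15.5 CPM for FL-HER2 and 1.86 for p95HER2 (log2 change -3.41 ± 0.40, adjusted p = 2.33e-08, limma), and it fell over time in FL-HER2 to a median of 1.15 CPM (-4.26 ± 0.41, 5.86e-11). Its lowest FL-HER2 day 10 library (9.01 CPM) was above the highest p95HER2 library of that day (3.64 CPM). Ecm2, the gene next to Aspn, was lower in p95HER2 at day 10 (medians 6.73 and 2.02 CPM, -1.76 ± 0.17, adjusted p = 6.13e-10) and fell over time in FL-HER2 (-1.78 ± 0.18, 1.33e-10), and had a log2 change of -0.12 ± 0.17 over time in p95HER2 (0.633). Tsku and Podnl1 did not pass between constructs and fell over time in both. Chadl rose over time, from a median of 5.94 to 11.9 CPM in FL-HER2 (0.90 ± 0.19, adjusted p = 0.000170) and from 5.48 to 9.96 CPM in p95HER2 (0.76 ± 0.19, 0.00131). Kera, Epyc, Optc and Nyx stayed below 1 CPM in every library and were not tested.

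Of 13 tested genes that work with versican and hyaluronan, 2 were higher and 6 lower in p95HER2 at day 10 (median log2 change -0.16, all genes -0.04). Of all genes, 15.2% were higher, near the share in this list, and 26.1% lower. The 2 higher genes, Has2 and Cd44, were higher at both days. The hyaluronan synthase Has2 rose from 8.78 ± 1.97 to 26.3 ± 5.16 CPM (SD, n = 10 each; log2 change 1.54 ± 0.17 SE, adjusted p = 9.54e-09, limma) and the hyaluronan receptor Cd44 from 262 ± 19.4 to 404 ± 34.7 CPM (0.57 ± 0.07, 8.85e-08). Itih5, of the family of inter-alpha-trypsin inhibitor heavy chains that are attached to hyaluronan, fell from 23.5 ± 6.04 to 5.48 ± 3.37 CPM (-2.35 ± 0.30, 1.12e-07). At day 22, 3 of 13 were higher and 0 lower, beside 2.98% and 1.54% of all genes. The 3 were Has2 (0.66 ± 0.18, adjusted p = 0.0247, limma), Cd44 (0.29 ± 0.07, 0.0164) and Itih2 (0.59 ± 0.13, 0.00631). Over time 7 of 13 fell and 1 rose in FL-HER2 (all genes 30.6% and 20.7%), and 6 fell and 0 rose in p95HER2 (all genes 18.6% and 16.6%). The cartilage proteoglycan Acan fell from 17.7 ± 7.74 to 1.57 ± 1.13 CPM (n = 10 and 9) in FL-HER2 and from 9.99 ± 3.36 to 1.38 ± 0.53 CPM (n = 10 each) in p95HER2, while Has2 (-1.89 ± 0.17) and Cd44 (-0.67 ± 0.07) fell in p95HER2, and Fbn1, a microfibril protein that binds versican, fell in FL-HER2 (-1.91 ± 0.18).

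Of 12 tested proteases that cleave versican or small proteoglycans, 2 were higher and 3 lower in p95HER2 at day 10, shares near those of all genes (15.2% higher and 26.1% lower). The versican-cleaving Adamts4 (109 ± 18.3 and 219 ± 18.1 CPM, log2 change 0.96 ± 0.08, adjusted p = 1.92e-11) and Adamts1 (29.2 ± 5.31 and 67.7 ± 13.4 CPM, 1.15 ± 0.15, 9.24e-08) rose and Adamts15 (21.5 ± 2.83 and 12.3 ± 2.26 CPM, -0.87 ± 0.11, 8.90e-08) fell (n = 10 each, limma). Adamts4 was also higher at day 22 (0.29 ± 0.09, adjusted p = 0.0398), where it was 1 of 1 called. Over time 8 of the 12 fell and 0 rose in FL-HER2 (all genes 30.6% and 20.7%), and 7 fell and 2 rose in p95HER2 (all genes 18.6% and 16.6%). Of 21 tested genes for the synthesis of chondroitin and dermatan sulfate, the chains of versican, decorin and biglycan, 3 were higher and 4 lower at day 10, again near these shares, and 0 changed at day 22. Over time 13 of 21 fell in FL-HER2 (all genes 30.6%) and 4 in p95HER2 (all genes 18.6%), with 0 rises. The dermatan sulfate epimerase Dse fell over time by 0.56 ± 0.08 and by 0.62 ± 0.07 on the log2 scale (adjusted p = 1.14e-07 and 1.39e-08).

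Of the 12 collagen genes listed, 10 were lower in p95HER2 at day 10, where 26.1% of all genes were, and 12 fell over time in each construct. Of 20 fibrillar collagen and collagen-processing genes, 15 were lower and 1 higher in p95HER2 at day 10 (median log2 change -0.78), with Col3a1 at 4698 ± 1508 against 1648 ± 464 CPM (SD, n = 10 each; -1.54 ± 0.20, adjusted p = 2.29e-07, limma) and Col14a1, which binds fibril surfaces, at 105 ± 25.9 and 32.3 ± 15.4 CPM (-1.86 ± 0.24, 1.79e-07). At day 22 none was lower and 1, the prolyl hydroxylase subunit P4ha1, was higher (0.39 ± 0.09, adjusted p = 0.00515). Over time 19 of 20 fell and 1 rose in FL-HER2 (median -2.07), and 18 fell and 0 rose in p95HER2 (-1.27). Of all genes, 30.6% and 18.6% fell. Col6a1, a beaded-filament collagen bound by decorin and biglycan, fell by 2.62 ± 0.16 in FL-HER2 (adjusted p = 1.15e-15) and by 1.99 ± 0.16 in p95HER2 (6.77e-13) on the log2 scale. Of 19 growth factors and receptors that bind these proteoglycans, 7 were higher and 6 lower at day 10, beside 15.2% and 26.1% of all genes. Among the lower were the coreceptor Tgfbr3 (-1.16 ± 0.14, adjusted p = 7.33e-08, limma) and Tgfbr2 (-0.47 ± 0.06, 5.45e-07), and among the higher the collagen receptor subunit Itga2 (0.98 ± 0.17, 1.20e-05). At day 22, Itgb1 (0.21 ± 0.05, adjusted p = 0.0148, limma) and Tgfb1 (0.28 ± 0.08, 0.0280) were higher and Selplg lower (-0.63 ± 0.18, 0.0347), beside 2.98% and 1.54% of all genes. Of the 19, 13 fell and 0 rose over time in FL-HER2 (all genes 30.6% and 20.7%). In p95HER2, 12 fell and 1 rose (all genes 18.6% and 16.6%).

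Markers of several cell types differed between the same groups. Beside them, 26.1% of all genes tested were lower and 15.2% higher in p95HER2 at day 10. In p95HER2 at day 10, 16 of 23 tested fibroblast markers were lower and 0 higher (median log2 change -1.06), as were 24 of 24 skeletal muscle (-4.32), 6 of 9 adipocyte (-1.59), 10 of 10 macrophage (-0.74), 8 of 10 endothelial (-0.60), 5 of 11 pericyte and smooth muscle (-0.14) and 3 of 6 tendon and fascia markers (-1.08), with 0 higher in each. Of 9 cartilage and bone markers, 6 were higher and 1 lower (0.34), and of 10 tumor epithelial markers 2 were higher and 2 lower (0.04), while 0 of 5 skin markers changed. At day 22, 1 of 23 fibroblast markers, Dpp4, was lower (all genes 1.54%). Over time, fibroblast markers fell for 22 of 23 in FL-HER2 (median -1.98) and 16 of 23 in p95HER2 (-0.89), with 1 rise in each; Gas1 was the rise in p95HER2. Of all genes, 30.6% were lower and 20.7% higher over time in FL-HER2, and 18.6% and 16.6% in p95HER2. In FL-HER2, 10 of 24 muscle (Mb -2.09) and 4 of 9 adipocyte markers (Lpl -1.48) fell. So did 9 of 11 pericyte and smooth muscle (Cnn1 -2.22) and 8 of 10 endothelial markers (Tek -1.26), with 0 rises in each list. Of macrophage markers there, 4 of 10 fell (Mrc1 -1.74) and 1, Gpnmb, rose, with a median log2 change of -0.18. Of tumor epithelial markers there, 5 of 10 fell (Krt14 -3.25, Krt7 -2.31) and 1 rose, with a median of -0.42. In p95HER2, 4 pericyte and smooth muscle, 1 macrophage and 5 tumor epithelial markers were lower over time, and 1, 4 and 2 were higher. Endothelial markers had 0 lower and 2 higher there, and no muscle or adipocyte marker was called. Tendon markers had 3 falls and 1 rise of 6 in FL-HER2 and 2 of each in p95HER2, where the cartilage and tendon protein Comp rose (1.02 ± 0.20, adjusted p = 8.77e-05). The part of these cell types in the members' changes was not tested beyond the fits with the fibroblast and muscle scores given here.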

How the data were processed

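Reads of 39 directional poly(A) libraries were aligned to mm10 with STAR 2.4.2a and handled with DESeq2, per the submitters' processing notes; no source used here states the counting, strand setting or annotation. The deposited values are log2 of the normalized count plus 1: undoing the log gave whole multiples of a step in each library for 100% of values (tolerance 0.001), from which reads and CPM were recovered. Libraries held 21772259 to 44427621 reads. Tests used limma 3.58.1 (R 4.3.3) on the deposited log2 values of 13650 genes that reached 1 CPM in 9 or more libraries, 1 fit over 4 groups, Benjamini-Hochberg adjusted p under 0.05, and two-sided permutation tests (scipy 1.17.1, numpy 2.4.6). The scripts were tested on simulated data. Exon lengths, the union over all transcripts of a gene, came from GENCODE M21. The log2 scale with its pseudocount of 1 normalized count understates changes of low genes such as Omd.

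Groups came from the sample titles. The members and gene lists were chosen with earlier results of these data known. From each list, up to 3 called genes with the smallest adjusted p were named per comparison, or the 2 with the highest CPM where none was called, and the text gives a selection of these. The pseudocount, filter, scaling, muscle, fibroblast and skin content, the digits of the label number and each library in turn were varied as alternatives. Count-model alternatives were not run; a weighted limma fit (voom) on the recovered reads and log2(CPM + 1) were added after seeing the data. 1 gene among those most like Vcan is not reported here.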

Additional observations from a re-analysis of the deposited data

Results flagged for a closer look

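In FL-HER2 tumors at day 22, replicate 4 lay far below the other 8 libraries for 2 members, with log2 values of 5.90 for Ogn and 7.84 for Aspn. These were 2 of 40 sets of libraries examined (10 members in 4 groups), and chance sets a library apart in about 1 in 20. This library had the most reads, 44427621, and the lowest share of reads in fibroblast markers, 0.136%; the part of either in these values was not tested.

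The effect of p95HER2 on 8 members differed between the days by the interaction term in limma. The effect at day 22 exceeded that at day 10 by 1.39 for Dcn, 0.85 for Bgn, 1.37 for Lum, 1.92 for Fmod, 1.83 for Ogn, 1.40 for Omd, 1.46 for Aspn and 1.22 for Podn on the log2 scale.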

How the results depend on the processing

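Of the 50 log2 changes (10 members in 5 comparisons), all 50 kept their direction and side of the threshold with a pseudocount of 5, no filter, median-of-ratios size factors, the compared groups alone or log2(CPM + 1), 49 with voom, 48 with quantile normalization, 47 with the muscle score as a covariate, 46 without skin-rich libraries, 32 each with the digits as a term or among muscle-limited libraries, and 19 with the fibroblast score. Members called lower in p95HER2 at day 10 numbered 3 with the fibroblast score, 3 with the digits and 3 among muscle-limited libraries, and members called higher 0 with the muscle score, the digits or limited muscle. Over time in FL-HER2, 2 were lower with the fibroblast score, and 0 higher with that score, the digits or limited muscle. In p95HER2 over time, 2 were lower and 2 higher with the fibroblast score, and 0 higher with limited muscle or without skin-rich libraries. At day 22, 1 (Bgn) was higher with the fibroblast score or the digits, and 0 members changed between days with the fibroblast score, the digits or limited muscle. Directions turned for Podn at day 22 (0.10 with quantile normalization, 0.0415 with the muscle score, 0.21 with the fibroblast score, 0.0649 with limited muscle, 0.17 without skin-rich libraries, 0.0083 with voom) and for Prelp over time in FL-HER2 (-0.0317 with the muscle score, -0.0547 with limited muscle, -0.0260 without skin-rich libraries). With the fibroblast score they turned for Bgn (0.16) and Prelp (0.0029) at day 10, Lum (0.18) and Fmod (0.0203) at day 22, Podn over time in FL-HER2 (0.26), and Dcn (0.24), Fmod (0.28), Ogn (0.25) and Podn (0.59) over time in p95HER2; with the digits, for Bgn (0.0156) and Prelp (0.15) at day 10. Leaving out each library gave 0 to 1 members higher at day 22 and 0 to 2 higher over time in p95HER2, and ranges across 0 for Podn (-0.13 to 0.0733) and Omd (-0.0399 to 0.30) at day 22, Prelp over time in FL-HER2 (-0.0189 to 0.10), Fmod minus Dcn over time in FL-HER2 (-0.16 to 0.0346) and Bgn minus Dcn over time in p95HER2 (-0.0807 to 0.0778). With a pseudocount of 5, Omd no longer departed from Dcn over time in FL-HER2 (-0.45, adjusted permutation p = 0.122) or p95HER2 (-0.62, 0.0990). Over all genes, 5636 calls at day 10 became 3249 with the muscle score, 1364 with the fibroblast score, 1375 with the digits and 641 with limited muscle. The share of calls that were higher, 36.8% at day 10, was 49.1% with median-of-ratios factors and 51.5% with log2(CPM + 1); over time in p95HER2 it was 47.1% and 64.3% with log2(CPM + 1), and for the change between days 68.5% and 56.1%. Quantile normalization moved the median of all genes by 0.11 at day 10. The causes were not tested. The planned edgeR and DESeq2 fits were not run. No paired analysis was possible because the replicate numbers were given in accession order. Depth limits Omd, with as few as 2 reads in a library.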
